A study of Mus musculus with 4 samples.

Results

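The 9 genes described here encode the subunits of succinate dehydrogenase (Sdha, Sdhb, Sdhc and Sdhd) and 5 other enzymes of the mitochondrial tricarboxylic acid (TCA) cycle (Cs, Idh3a, Ogdh, Fh1 and Mdh2). They were taken by name, and all 9 were found among the 49997 genes of the deposited count tables and passed the filter on low counts, which kept 19837 genes. RNA was sequenced from explants of the mouse aorta-gonad-mesonephros region (AGM), the embryonic tissue in which the earliest haematopoietic stem cells arise. Both groups were C57BL/6J explants kept for 48 hours on membrane filters in MyeloCult, a haematopoietic medium, with hydrocortisone. The untreated group held 2 libraries, and the other 2 libraries came from explants exposed to 5 µM CCCP for 48 hours. CCCP is a protonophore, which carries protons across the inner mitochondrial membrane and collapses the membrane potential. The labels give the embryos as E10.5 in one place and as E10.5 and E11.5 in another, and they name no vehicle, pooling, litter or batch.

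The TCA cycle oxidises acetyl groups in the mitochondrial matrix and passes the electrons to the respiratory chain. Succinate dehydrogenase belongs to both systems. As complex II it oxidises succinate to fumarate and hands the electrons to ubiquinone in the inner membrane, and unlike the other respiratory complexes it pumps no protons. All of its subunits are nuclear genes. The products of the cycle also serve as substrates and inhibitors of dioxygenases that act on histones, DNA and hypoxia-inducible factors, and haematopoietic stem cells are known to change their reliance on oxidative metabolism as they mature.

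Total counts ran from 37360968 to 48827826 per library, and replicate 1 was the deeper library in both groups. The labels give the cell type as embryonic HSCs (haematopoietic stem cells) and the series text as c-kit+ HSCs, while the extraction protocol speaks of explant RNA. Summed levels in TPM (a share of all transcripts, corrected for exon length) of 5 mesenchymal markers were 1189 to 2144, against 92.1 to 131 for 8 haematopoietic markers, and Ptprc, the pan-leukocyte antigen CD45, stood at 1.40 to 3.60 TPM. The highest sums were those of 7 erythroid markers, at 6861 to 9439 TPM, and 5 neural and neural crest markers summed to 825 to 1056 TPM. In such bulk samples fewer cells of a type and less RNA per cell cannot be told apart. Hepatic markers differed most between the groups. Their summed level over 8 genes was 2134 and 1115 TPM untreated and 7.56 and 80.2 TPM with CCCP. All 8 were lower in both CCCP libraries on counts scaled to library size, against 24.8% of all genes tested. The part of cell composition in the levels below was not tested.

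Promoters from RefSeq (build GRCm38.p6, 250 bases before to 50 bases after the transcript start) were found by symbol for 7 of the 9 genes, not for Sdhc or Idh3a. The promoters of Sdha, Sdhb and Sdhd are shown because their products must be built into 1 complex while their letters differ, and that of Mdh2 because it was the most abundant transcript of the 9. Capitals mark matches, on either strand, to the motif of NRF1, a regulator of nuclear genes for mitochondrial proteins (GCGCA and GCGC with any 1 base between them), to the core of ETS factors such as GABP (CCGGAAG), or to the cyclic AMP response element CRE (TGACGTCA).

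Sdha (chr13:74350191-74350490, minus strand): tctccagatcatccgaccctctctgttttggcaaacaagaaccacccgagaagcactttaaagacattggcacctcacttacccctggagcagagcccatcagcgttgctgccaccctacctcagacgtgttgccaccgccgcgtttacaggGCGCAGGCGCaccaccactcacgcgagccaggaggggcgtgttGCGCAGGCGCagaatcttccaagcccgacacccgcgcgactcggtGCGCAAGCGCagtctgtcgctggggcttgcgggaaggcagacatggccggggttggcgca
Sdhb (chr4:140961021-140961320, plus strand): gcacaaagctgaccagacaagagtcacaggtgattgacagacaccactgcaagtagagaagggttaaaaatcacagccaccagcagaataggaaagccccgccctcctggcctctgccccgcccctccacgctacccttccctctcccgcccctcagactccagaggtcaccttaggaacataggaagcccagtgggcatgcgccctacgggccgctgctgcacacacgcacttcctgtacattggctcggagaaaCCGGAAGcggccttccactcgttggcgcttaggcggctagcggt
Sdhd (chr9:50603800-50604099, minus strand): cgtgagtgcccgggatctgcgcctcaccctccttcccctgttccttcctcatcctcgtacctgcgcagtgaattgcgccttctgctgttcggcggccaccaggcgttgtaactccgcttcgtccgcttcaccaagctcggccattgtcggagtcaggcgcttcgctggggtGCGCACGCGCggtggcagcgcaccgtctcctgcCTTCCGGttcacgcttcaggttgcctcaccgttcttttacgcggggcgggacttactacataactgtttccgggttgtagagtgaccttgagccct
Mdh2 (chr5:135778399-135778698, plus strand): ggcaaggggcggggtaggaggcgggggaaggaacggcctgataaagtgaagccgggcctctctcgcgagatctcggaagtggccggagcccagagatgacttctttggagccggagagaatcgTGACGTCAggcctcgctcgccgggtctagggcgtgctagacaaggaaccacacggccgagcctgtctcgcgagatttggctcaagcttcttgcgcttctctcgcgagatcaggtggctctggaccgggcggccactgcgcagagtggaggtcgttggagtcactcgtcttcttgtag

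The NRF1 motif occurred 3 times in the Sdha promoter, its first base lying 98, 55 and 10 bases upstream of the transcript start, and 1 time in the Sdhd promoter, 79 bases upstream. The ETS core lay 6 bases downstream of the start in Sdhb and 46 bases upstream in Sdhd. The CRE lay 127 bases upstream in Mdh2 and was also present in 3 of the 6 promoters listed for Ogdh, which overlap at that site. None of these matches overlapped another. Among all 32851 promoters of the same length in the table, 4.60% held the NRF1 motif, 8.86% the ETS core and 1.79% the CRE. The ATF4 motif TGATGNAA, held by 3.97% of promoters, was not among the letters of the 7 promoters. A match describes the sequence and is not a measured binding site.

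The comparison of CCCP with untreated explants asks how transcripts of these enzymes differ when the proton gradient is dissipated. All 9 genes had a higher fitted level in CCCP, but by small amounts, with log2 fold changes between 0.07 (Idh3a) and 0.42 (Sdhc) and a median of 0.24, against a median of -0.01 over all genes tested. None of the 9 reached an adjusted p under 0.05 in the quasi-likelihood test of edgeR (Benjamini-Hochberg over all genes), which called 0.00% of the 19837 genes. At an unadjusted p under 0.05 there were 2 of the 9, Sdhc and Mdh2, where 5.45% of all genes passed as higher and 9.16% as lower, and DESeq2 called 0 of the 9, where it called 2.99% of all genes. For 7 of the 9 genes the lower CCCP library exceeded the higher untreated one in CPM, against 24.0% of all genes tested. On that scale the groups overlapped for Idh3a and Fh1, and no member was lower in both CCCP libraries. The plot of CPM by library shows the values behind these counts.

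**Figure D1:**
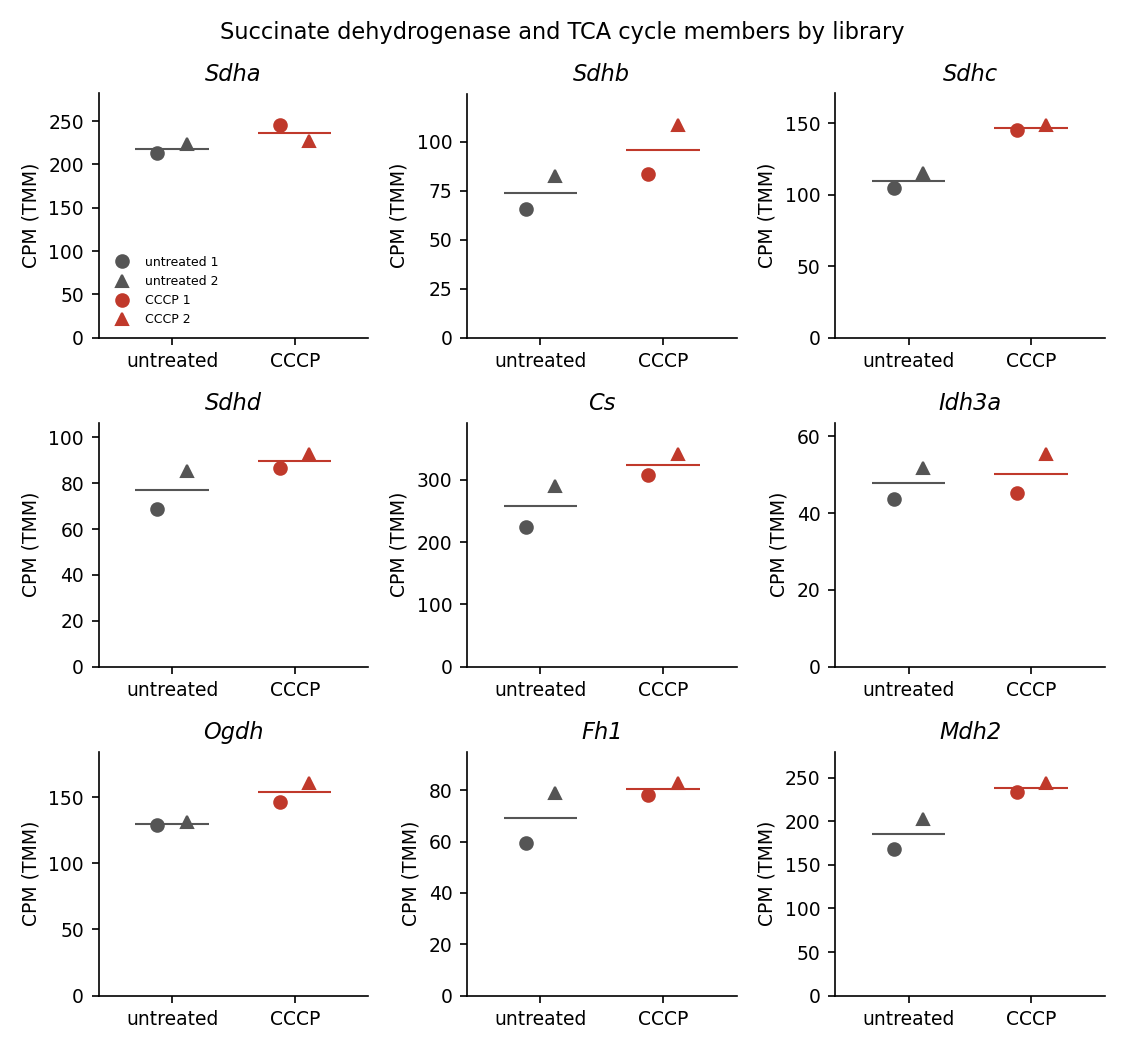
Level of each of the 9 genes in CPM (counts scaled to library size with TMM factors, axes from 0) in the 2 untreated (grey) and 2 CCCP (red) libraries, with circles for replicate 1, triangles for replicate 2 and lines at the group means. The groups are well apart for Sdhc, at 105 and 115 against 145 and 148 CPM, and overlap for Idh3a and Fh1.

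Within succinate dehydrogenase, the membrane anchor Sdhc differed most and the catalytic subunit Sdha least. Sdhc (chromosome 1, 171129157 to 171150640, minus strand) encodes one of the anchors that form the ubiquinone site. It stood at 104.6 and 114.8 CPM untreated and at 145.0 and 148.4 CPM with CCCP (counts scaled to library size), so the lowest CCCP library was 26.3% above the highest untreated one. The log2 fold change was 0.42 (standard error 0.115, edgeR adjusted p 0.240). Its values within each group were close together, at 109.7 ± 7.25 CPM untreated and 146.7 ± 2.39 CPM with CCCP (SD, n = 2).

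Sdhb (chromosome 4, 140961271 to 140979198, plus strand) encodes the subunit whose iron-sulfur clusters carry electrons towards the membrane. It measured 65.7 and 82.7 CPM untreated and 83.7 and 108.5 CPM with CCCP. The log2 fold change of 0.37 was nearly as large as that of Sdhc, but untreated replicate 2 and CCCP replicate 1 were only 1.28% apart, less than the counting error of 1.80% at the lowest Sdhb count. The standard error was 0.179 (edgeR adjusted p 0.389). Without CCCP replicate 2 the log2 fold change was 0.18, and without untreated replicate 2 it was 0.58.

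Sdhd (chromosome 9, 50596340 to 50603849, minus strand), the other anchor, had 68.5 and 85.3 CPM untreated and 86.6 and 92.6 CPM with CCCP. Its groups were 1.46% apart, against a counting error of 1.77%, and the log2 fold change was 0.22 (standard error 0.143, edgeR adjusted p 0.503). Leaving out untreated replicate 1, the lowest library, gave a log2 fold change of 0.079, and leaving out untreated replicate 2 gave 0.42.

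Sdha (chromosome 13, 74322255 to 74350240, minus strand) encodes the flavoprotein that binds FAD and oxidises succinate. Its libraries lay close together, at 212.8 and 223.2 CPM untreated and 245.1 and 227.5 CPM with CCCP, and it was the only one of the 9 genes in which CCCP replicate 1 exceeded CCCP replicate 2. The log2 fold change was 0.12 (standard error 0.118, edgeR adjusted p 0.661). None of the exons of these 4 genes shared a base with another annotated gene, and no stretch of at least 50 bases in their longest GENCODE transcripts matched another gene at 95% identity or more.

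Since these subunits join in fixed proportion in the complex, their levels per length were also set against each other within each library. The ratio of Sdhc to Sdha in TPM was 1.09 and 1.14 untreated and 1.31 and 1.44 with CCCP, a mean difference of 0.31 on the log2 scale with no overlap. For Sdhb over Sdha the ratio was 0.818 and 0.981 untreated against 0.905 and 1.26 with CCCP, and for Sdhd over Sdha it was 0.717 and 0.851 against 0.786 and 0.905, so both overlapped. The smallest two-sided p that an exact permutation of 2 against 2 libraries allows is 0.333, so no test is given for these ratios.

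Of the enzymes before succinate, citrate synthase differed most. Cs (chromosome 10, 128337727 to 128362482, plus strand) condenses oxaloacetate with acetyl-CoA at the entry of the cycle. It had 224.7 and 290.6 CPM untreated and 307.7 and 341.0 CPM with CCCP. The groups did not overlap, yet the untreated libraries differed from each other by a factor of 1.29, and the log2 fold change was 0.33 (standard error 0.163, edgeR adjusted p 0.397). Leaving out untreated replicate 1 gave 0.17, and leaving out untreated replicate 2 gave 0.56. Of the Cs exons, 9.27% overlap a predicted gene on the other strand, Gm51822.

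Ogdh (chromosome 11, 6291597 to 6359094, plus strand) encodes the decarboxylating component of the alpha-ketoglutarate dehydrogenase complex, which makes succinyl-CoA. It stood at 128.7 and 131.4 CPM untreated and at 146.6 and 160.4 CPM with CCCP. Its untreated libraries were the closest pair among the 9 genes, and the groups were 11.6% apart. The log2 fold change was 0.24 (standard error 0.114, edgeR adjusted p 0.389). A predicted gene on the other strand, Gm46270, overlaps 6.44% of its exons.

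Idh3a (chromosome 9, 54586511 to 54604662, plus strand) encodes the catalytic subunit of the NAD-dependent isocitrate dehydrogenase. It had 43.8 and 51.7 CPM untreated and 45.2 and 55.3 CPM with CCCP. The groups overlapped, the difference between replicates exceeded that between groups, and the log2 fold change was 0.07 (standard error 0.154, edgeR adjusted p 0.848).

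After fumarate come Fh1 and Mdh2. Fh1 (chromosome 1, 175601378 to 175625635, minus strand) encodes fumarase, which hydrates fumarate to malate. It had 59.4 and 79.0 CPM untreated and 78.1 and 82.7 CPM with CCCP, and only untreated replicate 1 stood apart, below the other 3 libraries. The log2 fold change of 0.22 (standard error 0.160, edgeR adjusted p 0.548) was 0.035 without that library and 0.47 without untreated replicate 2.

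Mdh2 (chromosome 5, 135778649 to 135790386, plus strand) encodes the mitochondrial malate dehydrogenase, which regenerates oxaloacetate. It stood at 167.8 and 202.7 CPM untreated and at 233.1 and 243.5 CPM with CCCP, with the lowest CCCP library 15% above the highest untreated one. The log2 fold change was 0.36 (standard error 0.137, edgeR adjusted p 0.317) and ran from 0.24 to 0.54 when 1 library was left out at a time.

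Levels between genes can be compared only per exon length. In untreated explants Mdh2 was the most abundant, at 416.4 ± 17.2 TPM (SD, n = 2). Cs, at 248.7 ± 22.3 TPM, Sdhc, at 245.0 ± 6.38 TPM, and Sdha, at 220.8 ± 12.9 TPM, followed. Sdhb stood at 197.9 ± 13.9 and Sdhd at 172.4 ± 10.8 TPM. Fh1 followed at 121.8 ± 13.2 TPM. Idh3a, at 57.3 ± 1.46 TPM, and Ogdh, at 49.9 ± 3.86 TPM, were the lowest. Of the neighbours in this order, the libraries of Cs and Sdhc overlapped and those of the other pairs did not. These levels per length depend on the annotation, most for Sdhc, Ogdh and Fh1. Their exons sum to 1295, 7547 and 1632 bases in the deposited annotation. Their longest GENCODE transcripts have 3171, 4127 and 2636 bases. The length by which counts are divided is the same in all libraries. Its choice therefore bears on the order of genes and on the size of their ratios, not on differences of a ratio between groups. Log2 fold changes also went with exon length, as described below, and the ratios were not corrected for that trend. With it removed, the log2 fold changes of Sdhc and Sdha were 0.25 and 0.051.

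In CCCP explants the order of these means was Mdh2, Sdhc, Cs, Sdhb, Sdha, Sdhd, Fh1, Idh3a and Ogdh. Compared with the untreated order, Sdhc stood before Cs, at 285.5 ± 10.7 and 274.0 ± 5.19 TPM (SD, n = 2). Sdhb stood before Sdha, at 223.5 ± 28.9 and 208.7 ± 22.1 TPM. The libraries of Sdhb and Sdha overlapped. Together the 9 transcripts made up 1691 and 1770 TPM in the untreated and 1868 and 1858 TPM in the CCCP libraries. The 4 subunits of succinate dehydrogenase made up 832.2 and 839.8 TPM untreated and 896.7 and 889.6 TPM with CCCP. The plot of TPM in the order of the cycle shows these levels beside those of the partner enzymes.

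**Figure D2:**
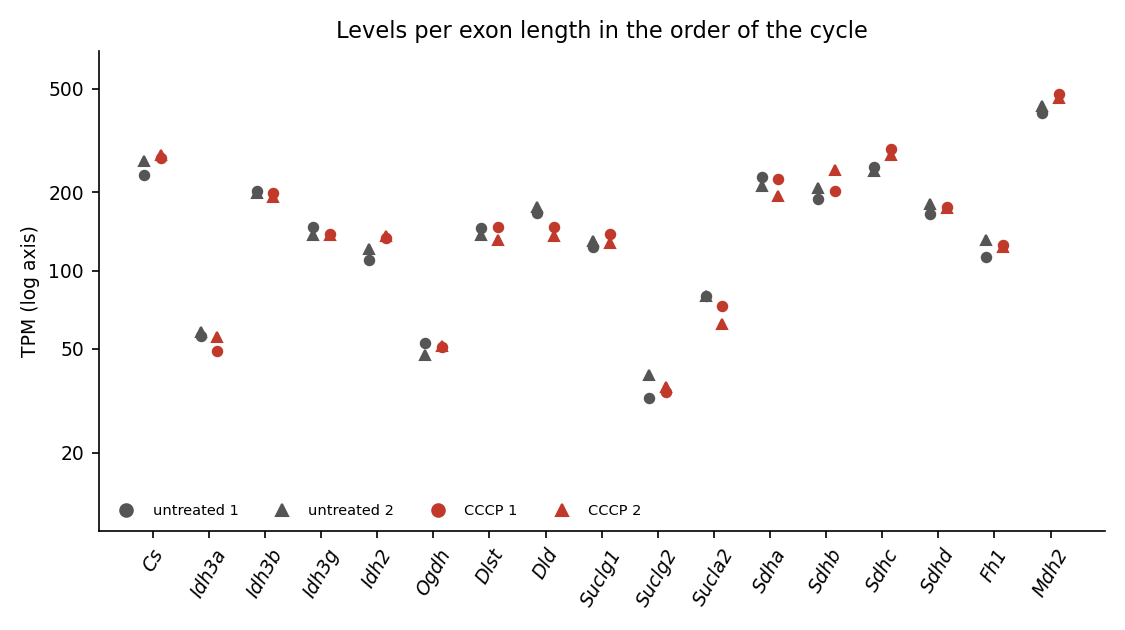
Level per exon length (TPM, log axis) of the TCA cycle genes in the order of the reactions, in untreated (grey) and CCCP (red) libraries, circles for replicate 1 and triangles for replicate 2. Mdh2 was highest at 404 to 476 TPM, while Ogdh, Idh3a and Suclg2 lay under 60 TPM in every library.

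On the TPM scale several differences between groups were smaller than in CPM or went the other way. The mean of Sdha was 220.8 TPM untreated and 208.7 TPM with CCCP, and that of Idh3a 57.3 and 52.5 TPM. In TPM both CCCP libraries were higher only for Sdhc, Cs and Mdh2. Idh3a was lower in both, at 56.2 and 58.3 TPM untreated and 49.3 and 55.8 TPM with CCCP. The groups of Sdha, Sdhb, Sdhd, Ogdh and Fh1 overlapped. The shares of all genes tested, 24.0% higher and 24.8% lower in both CCCP libraries, are for CPM. No such share is given here in TPM, so these counts have no background to be read against. When library sizes in edgeR were set to the summed counts per exon base, the denominator of TPM, a choice made after seeing the data, the median over all genes tested moved from -0.01 to -0.21 on the log2 scale and that of the 9 genes from 0.24 to 0.036. Sdha then stood at -0.081 and Idh3a at -0.12, while the other 7 remained above 0, with Sdhc at 0.22, Sdhb at 0.18 and Mdh2 at 0.17. This scaling changes every gene of a library by the same factor. All 9 genes therefore stayed above the median of all genes, which is no separate check.

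Log2 fold changes went with exon length over all genes. Spearman's rho was -0.35 across the 19837 genes, which are not independent replicates. In 10 bins of exon length, the median log2 fold change ran from 0.22 in the shortest genes to -0.35 in the longest. Sdhb, Sdhc, Sdhd, Fh1 and Mdh2, with exons of 1079 to 1632 bases, fall in the second of these bins, whose median was 0.19, and Sdhd and Fh1, both at 0.22, were close to it. Sdha and Cs fall in the fifth bin (median 0.08) and Idh3a in the fourth (0.10). Ogdh, with 7547 bases of exon, falls in the ninth, whose median was -0.20, and lay furthest from the genes of like length. The plot against bins of exon length shows this.

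**Figure D3:**
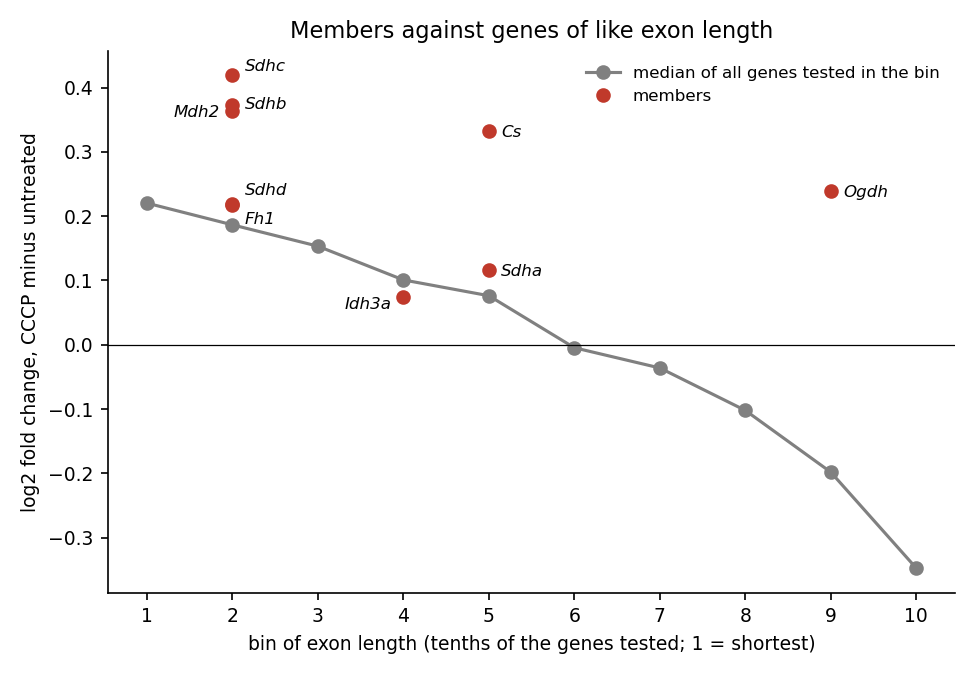
Log2 fold change (CCCP minus untreated) of the 9 genes (red) at the bin of exon length they belong to, with the median of all genes tested in each bin (grey line). Ogdh, at 0.24, lies above a bin median of -0.20, while Sdhd, Fh1, Sdha and Idh3a lie near the line.

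After removal of the trend with exon length, the median over the 9 genes was 0.19 and their order differed. Ogdh then had the largest log2 fold change, 0.42 (edgeR adjusted p 0.325), followed by Cs at 0.28 and Sdhc at 0.25. Sdhd was at 0.055, Sdha at 0.051 and Idh3a at -0.017. Log2 fold changes also went with GC content (rho 0.374 over 17929 genes). With the GC trend removed instead, the median was 0.25, Sdhc stayed at 0.42 and Ogdh was at 0.14. The plot of fold changes places these values beside those of the fit on CPM.

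**Figure D4:**
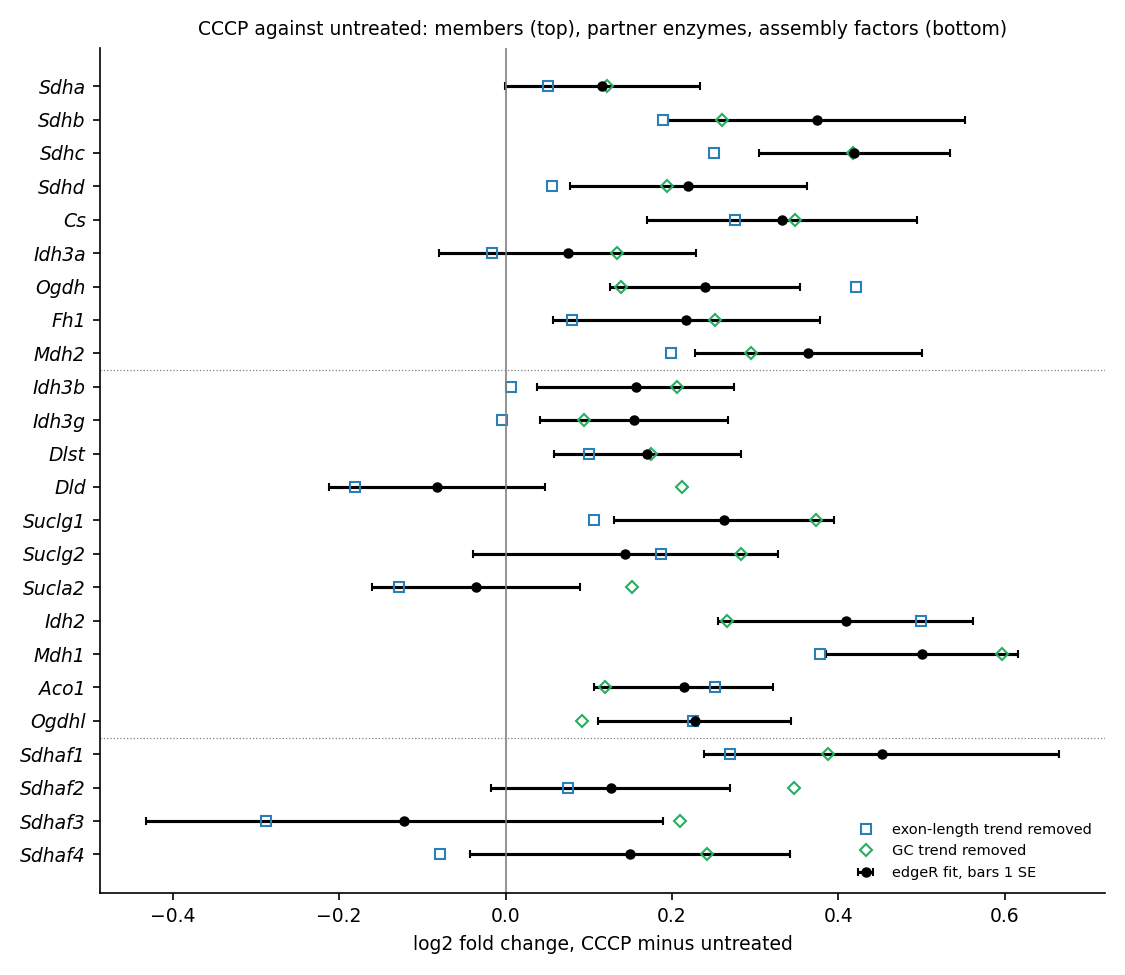
Log2 fold change (CCCP minus untreated) of the 9 genes, of 11 partner enzymes and of the 4 assembly factors of succinate dehydrogenase. Black points show the edgeR fit with bars of 1 standard error, blue squares the fit with the exon-length trend removed and green diamonds that with the GC trend removed. Removing the length trend moves Ogdh up to 0.42 and Sdhb down to 0.19.

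On the CPM scale, replicates of the same group differed in a common direction. In the untreated group all 9 genes were higher in replicate 2 than in replicate 1, by a factor of 1.02 (Ogdh) to 1.33 (Fh1), where 50.1% of all genes tested were higher. In the CCCP group 8 of the 9 were higher in replicate 2, where 52.1% of all genes were. In TPM, however, Sdha, Sdhc and Ogdh were lower in untreated replicate 2, and Sdha, Sdhc, Sdhd, Fh1 and Mdh2 in CCCP replicate 2. The 9 genes summed to 1691 and 1770 TPM in untreated replicates 1 and 2, and to 1868 and 1858 TPM with CCCP. The summed mesenchymal markers were lower in replicate 2 of both groups, at 2144 and 1189 TPM untreated and 1596 and 1238 TPM with CCCP. Their part in the levels of the 9 genes was not tested. Leaving out untreated replicate 2 gave a median log2 fold change of 0.47 over the 9 genes, and leaving out untreated replicate 1 gave 0.17.

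The remaining enzymes of the cycle were more often higher than lower in CCCP. Of 8 genes, 6 had a log2 fold change above 0, against 49.2% of all genes tested, and 5 were higher in both CCCP libraries, against 24.0%. None passed the edgeR test or DESeq2. The median was 0.16, and 0.053 after removal of the trend with exon length. Suclg1, the subunit shared by both succinyl-CoA ligases, had 55.4 and 66.9 CPM untreated and 73.4 CPM in both CCCP libraries (log2 fold change 0.26).

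The partner subunits of the dehydrogenases had log2 fold changes between -0.08 and 0.17. Idh3b and Idh3g, which complete the NAD-dependent isocitrate dehydrogenase, had log2 fold changes of 0.16 and 0.15, and each stood above Idh3a in TPM in every library. The ratio of Idh3a to Idh3b was 0.278 and 0.293 untreated and 0.249 and 0.291 with CCCP. Dlst and Dld, which complete the alpha-ketoglutarate dehydrogenase complex, had log2 fold changes of 0.17 and -0.08, and Dld was at 0.21 once the GC trend was removed. The succinyl-CoA ligase subunits Sucla2 and Suclg2, which set whether ATP or GTP is formed, were at -0.036 and 0.14 with overlapping groups. Suclg2 is uncertain, since 41.1% of its longest transcript matches other genes at 95% identity or more.

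Isoenzymes outside the cycle included Mdh1, which had the smallest unadjusted p of the 9 genes and the 68 others tested in these lists, 0.00477. Mdh1, the cytosolic malate dehydrogenase, had 140.0 and 153.1 CPM untreated and 203.2 and 211.4 CPM with CCCP. Its groups were far apart relative to their spread, at a log2 fold change of 0.50 (standard error 0.116). Its adjusted p-value was 0.204 in edgeR and 0.0312 in DESeq2, and it was 0.0225 in edgeR without the filter on low counts, so the call depended on the tool and on the filter. The ratio of Mdh2 to Mdh1 in TPM was 1.83 and 2.02 untreated and 1.75 and 1.76 with CCCP. Idh2, the mitochondrial NADP-dependent isocitrate dehydrogenase, had 198.5 and 249.3 CPM untreated and 283.0 and 311.4 CPM with CCCP (log2 fold change 0.41, edgeR adjusted p 0.316). Idh2 over Idh3a in TPM was 1.96 and 2.09 untreated against 2.71 and 2.44 with CCCP, with no overlap. The size of this ratio depends on the annotation, since the exons of Idh2 sum to 5557 bases and its longest GENCODE transcript has 1790.

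Of the other isoenzymes, Aco1, the cytosolic aconitase that also acts as an iron regulatory protein, was at 0.21, and Ogdhl, a relative of Ogdh, at 0.23. The ratio of Ogdh to Ogdhl was 1.47 to 1.54 in all 4 libraries. Csl, a gene resembling Cs, had 0 to 8 counts and was not tested. Dhtkd1, which acts in lysine breakdown, was at -0.32 and Glud1, the glutamate dehydrogenase that feeds alpha-ketoglutarate into the cycle, at -0.11. With the length trend removed they were at -0.12 and -0.16. Over the 17 genes of this list 16 were tested, 11 had a log2 fold change above 0, and the edgeR adjusted p-values were at least 0.204.

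The assembly factors of succinate dehydrogenase were expressed well below its subunits. Sdhaf1, which assists the iron-sulfur clusters of Sdhb, had 10.53 and 14.65 CPM untreated and 17.12 and 17.28 CPM with CCCP (log2 fold change 0.45, standard error 0.213, edgeR adjusted p 0.384). Sdhaf2, which assists the attachment of FAD to Sdha, was at 0.13. Sdhaf4 was at 0.15, and Sdhaf3, on 148 to 314 counts per library, at -0.12. By the distance between profiles of log2 CPM over the 4 libraries, each centred on its own mean, the nearest of 76 genes to Sdha was Dlst (distance 0.070), to Sdhb Glrx5 (0.149), to Sdhc Mdh1 (0.083) and to Sdhd Fh1 (0.067).

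Genes that supply the cofactors of these enzymes were described from lists for iron-sulfur clusters, lipoic acid and FAD. Iron-sulfur cluster assembly serves Sdhb among other proteins. Of its 12 genes 11 had a log2 fold change above 0, against 49.2% of all genes tested, and 8 were higher in both CCCP libraries, against 24.0%. The median was 0.26, and 0.14 after removal of the trend with exon length. Glrx5, a glutaredoxin of that pathway, had 28.8 and 39.0 CPM untreated and 41.8 and 53.7 CPM with CCCP (log2 fold change 0.49, edgeR adjusted p 0.338). Iba57 was at 0.43, and Fdx2, with 41 to 53 counts and 69.0% of its exons shared with another gene, at -0.052.

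Lipoic acid is the cofactor of the pyruvate and alpha-ketoglutarate dehydrogenases and is made from mitochondrial fatty acid synthesis. Mcat and Oxsm, which act in that synthesis, differed in opposite directions. Mcat had 19.4 and 25.7 CPM untreated and 31.0 and 33.5 CPM with CCCP (log2 fold change 0.51), and Oxsm had 7.79 and 7.46 CPM untreated and 5.38 and 5.16 CPM with CCCP (-0.53). Their edgeR adjusted p-values were 0.296 and 0.342. Lipt2, a transferase of the pathway, was at 0.41. In the FAD list Rfk, Flad1 and Slc25a32 were at 0.13, 0.096 and -0.37, and at 0.041, 0.0004 and -0.14 with the length trend removed.

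Pyruvate entry showed no common direction, with 6 of 12 genes above 0 and 6 below and a median of 0.01. The median was 0.028 with the length trend removed and 0.19 with the GC trend removed. This list pools the enzyme with its regulators. Of the subunits, Pdha1, Pdhb, Pdhx and Dlat were above 0 and Dld below. Pdha1 was at -0.0062 with the length trend removed. The phosphatase genes Pdp1, Pdp2 and Pdpr were below 0, and the kinases went both ways. Pdp1 and Pdp2, at -0.089 and -0.041, had overlapping groups. Their signs turned, for Pdp1 to 0.27 with the GC trend removed and for Pdp2 to 0.063 with the length trend removed. Pdk1, a kinase that inhibits pyruvate dehydrogenase, had 97.1 and 106.5 CPM untreated and 77.1 and 73.5 CPM with CCCP, which gave a log2 fold change of -0.44 (standard error 0.115, edgeR adjusted p 0.230). Pdpr, a regulatory subunit of the opposing phosphatase, was at -0.21 with no overlap between groups, but at -0.011 after removal of the trend with exon length. Pdhb, a subunit of the dehydrogenase itself, and Pdk3, another kinase, were at 0.28 and 0.26. The groups overlapped for Pdk3.

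Carriers that move cycle intermediates across the inner membrane had a median of 0.21 over 8 genes, 6 of them above 0. Slc25a11, the exchanger of malate and alpha-ketoglutarate, had 58.2 and 59.4 CPM untreated and 77.6 and 71.9 CPM with CCCP, a log2 fold change of 0.35 (edgeR adjusted p 0.277). Slc25a10, the dicarboxylate carrier that accepts succinate and malate, had 21.4 and 20.4 CPM untreated and 28.1 and 25.6 CPM with CCCP (0.37, adjusted p 0.334). Slc25a21 was at -0.77 on 35 to 84 counts, a value that became -0.0875 on leaving out untreated replicate 2 and -1.22 on leaving out untreated replicate 1. Mpc1, a subunit of the pyruvate carrier, was at -0.26. Over all lists other than the 9 genes, 68 of 69 genes were tested and 50 had a log2 fold change above 0, against 49.2% of all genes. Of those 68, 34 were higher and 8 lower in both CCCP libraries, where 24.0% and 24.8% of all genes tested were. None passed in edgeR. At an unadjusted p under 0.05 in edgeR 8 were higher and 2 lower, where 5.45% and 9.16% of all genes were. Mdh1 alone passed in DESeq2, which called 2.99% of all genes.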

How the data were processed

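Poly(A) RNA of 2 untreated and 2 CCCP-treated AGM explant libraries was measured, with groups read from the titles. The authors deposited unnormalised read counts for each gene, from featureCounts 2.0.3 and the mm10 RefSeq annotation, per the file headers. HISAT2 and SAMtools are named in the submitters' processing notes without versions. The command in the file headers sets neither strand nor fragment counting, so a gene with an antisense partner or a near-identical copy has an uncertain count. The RefSeq table of this build held each of the 49997 symbols.

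CPM with TMM scaling and TPM (from the exon length in the files) were computed from these counts. The test was edgeR 4.0.16 in R 4.3.3 (glmQLFit, glmQLFTest, filterByExpr with minimum count 10 and minimum total 15, group as the sole term), two-sided, with Benjamini-Hochberg adjustment over all 19837 genes tested and a threshold of 0.05. It was tested on simulated data. Standard errors come from the log2 fold change and the root of its F statistic. DESeq2 1.42.0 was an alternative, as were other scalings, no filter, each library left out, the replicate number as a block, and trends of exon length or GC content removed by offsets (lowess, span 0.3). GC content came from GENCODE transcripts of the build and was known for 90.4% of genes tested. Nothing says that replicates are separate litters, so p-values measure the spread between these libraries. A count of 3 corresponds to 0.0599 to 0.0827 CPM, and such limits cover counting error only.

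The members, lists, named genes and motifs were chosen with earlier results of these data known. Named were all 9 members, their partner enzymes (1 of which is not reported here), from each list the 2 genes of smallest unadjusted p per direction, and the gene nearest in profile to each subunit; Sdhaf4 and the Ptprc check were added.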

Additional observations from a re-analysis of the deposited data

How the results depend on the processing

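The number of genes called by edgeR was 0 with RLE size factors, with no scaling factor, with either trend removed and with per-length scaling. It was 10 to 46 with 1 library left out (the lone library then assumed to vary like the other group), 1107 without a filter beyond 1 count, 594 in DESeq2, 2118 with the replicate block, and 1242 or 775 when that block was joined to removal of the length or the GC trend. Of the 9 members 2 (Sdhb and Sdhc, edgeR adjusted p 0.0419 and 0.0278) were called with the replicate block, where 3.80% of all genes were called as higher. Joined to removal of the length trend, the block called 1 (Ogdh, adjusted p 0.025; 2.81% of all genes), and the other 12 alternatives called 0. Of the 68 genes tested in the wider lists the block in edgeR called 5, where it called 10.7% of all genes. They were Mdh1 (adjusted p 0.0129), Glrx5 (0.0181), Pdk1 (0.026), Mcat (0.0285) and Idh2 (0.0337). Joined to length removal the block called 3, Idh2 (0.0181), Mdh1 (0.0354) and Slc25a11 (0.048), against 6.26% of all genes. Joined to GC removal it called 1, Mdh1 (0.0131), against 3.91%. Mdh1 was also the 1 gene of these lists called without the filter and the 1 called in DESeq2, against 3.43% and 2.99% of all genes. What a replicate number stands for is not stated, and no pairing is read from only 2 pairs (correlation of same-numbered deviations 0.36 over 19837 genes). The cause of these changes was not tested.

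The median of the 9 members was 0.17 to 0.47 with 1 library left out and that of the wider lists 0.12 to 0.27; with per-length scaling, chosen after seeing the data, they were 0.036 and -0.045, where the median of all genes moved to -0.21. Signs turned for some genes that are not listed for every alternative. With the length trend removed and no block, Sdhaf4 was at -0.079, Pdha1 at -0.0062 and Pdp2 at 0.063. With the GC trend removed and no block, Pdp1 was at 0.27. Among the 9 members, their partner enzymes and the genes named by smallest unadjusted p, signs turned as follows. With the length trend removed Idh3a was at -0.017 and Idh3g at -0.0041, and with the block as well at -0.021 and -0.004. With the GC trend removed Dld was at 0.21, Sucla2 at 0.15, Sdhaf3 at 0.21 and Flad1 at -0.013, and with the block as well at 0.22, 0.15, 0.18 and -0.013. With per-length scaling Sdha was at -0.081, Idh3a -0.12, Idh3b -0.042, Idh3g -0.047, Dlst -0.027, Suclg2 -0.046, Sdhaf2 -0.072, Rfk -0.070 and Flad1 -0.11. With 1 library left out Idh3a ran from -0.068 to 0.23, Suclg2 from -0.071 to 0.44, Dld from -0.20 to 0.083, Sucla2 from -0.12 to 0.091, Sdhaf3 from -0.49 to 0.18, Fdx2 from -0.34 to 0.21 and Flad1 from -0.034 to 0.24.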

Other observations

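Further genes of the isoenzyme and carrier lists are given here as values, chosen after they had been seen. Got1, the cytosolic aspartate aminotransferase, had 54.0 and 71.9 CPM untreated and 76.5 and 83.0 CPM with CCCP, and Got2, its mitochondrial counterpart, had 172.9 and 218.6 CPM untreated and 229.3 and 251.4 CPM with CCCP. Their log2 fold changes were 0.34 and 0.30, with both CCCP libraries higher, as for 24.0% of all genes tested. Of the aspartate-glutamate carriers, Slc25a12 had 31.4 and 30.7 CPM untreated and 30.6 and 31.7 CPM with CCCP, and Slc25a13 had 23.9 and 43.8 CPM untreated and 33.3 and 39.8 CPM with CCCP, both with overlapping groups. None of these genes passed the adjustment in edgeR (adjusted p from 0.390 to 0.993).

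Pcx, the pyruvate carboxylase that replenishes oxaloacetate, had 43.6 and 39.8 CPM untreated and 56.5 and 48.9 CPM with CCCP, a log2 fold change of 0.34 (edgeR adjusted p 0.330). The malic enzymes Me1 and Me3 were at 0.18 and -0.37, Me3 on 20 to 39 counts.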
